A study of Mus musculus with 7 samples.

Results

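Fetal livers of C57BL/6 mouse embryos at E12.5 were profiled by RNA sequencing in 7 libraries, and each library title carries a 6-digit code in the form of a date. Here the 4 libraries with the later code (called the second date code) were compared with the 3 libraries that carry the earlier code (called the first), with genotype as a covariate. These are all 7 of the 7 libraries of the series, and they were divided by the code in the title and by no measured value. The labels do not say whether the code marks a collection, an extraction or a sequencing run, so it is called a date code throughout.

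The first date code held 1 TAF10KO library (liver 1), 1 TAF10HET library (liver 3) and 1 WT library (liver 7). The second held 1 TAF10KO library (liver 7), 2 TAF10HET libraries (livers 2 and 4) and 1 WT library (liver 5). By the titles, both TAF10KO embryos were lox/lox for Taf10 and carried EpoCre, a Cre recombinase expressed from the erythropoietin receptor gene and thus active in erythroid cells. The series' design text writes the knockout as lox/KO instead, and the titles were followed here. Both WT embryos were lox/lox with the tag NEG in place of EpoCre, and they therefore also carried floxed Taf10 alleles. The TAF10HET embryos were lox/wt with EpoCre on the first date code and wt/ko with EpoCre on the second, so within TAF10HET the date code and the alleles cannot be told apart. Every library was made from RNA of a dissociated fetal liver, which was not sorted for any cell type, and the labels name no litter or dam.

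The E12.5 liver is the main site of red cell production in the mouse embryo. Erythroid cells at every stage of maturation fill a scaffold of hepatoblasts, endothelium, stellate and other mesenchymal cells, and a mesothelium covers the organ. Large nucleated primitive red cells from the yolk sac, which express embryonic globins, circulate through it at this stage, while the definitive erythroblasts made in the liver express adult globins. Hepatoblasts, the common precursors of hepatocytes and bile duct cells, secrete albumin and alpha-fetoprotein.

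Between 19784658 and 33421125 reads per library were assigned to genes on the first date code and between 18008391 and 43401474 on the second. Reads in no gene made up 6.81 to 10.1% and 7.23 to 9.09%. Mitochondrially encoded genes took 3.11 to 4.41% and 3.90 to 4.57% of gene counts. Alignments that were not unique made up 17.5% (WT), 21.8% (TAF10HET) and 14.1% (TAF10KO) on the first date code and 20.1 to 22.2% on the second. Values below are CPM (each count divided by its library total and brought to a fixed total) after scaling by edgeR's TMM factors, and libraries are given in the order WT, TAF10HET, TAF10KO, with TAF10HET liver 2 before liver 4 on the second date code. Taf10, the targeted gene, was at 72.1, 78.3 and 37.9 CPM on the first date code and 96.3, 63.6, 63.0 and 43.8 CPM on the second, lowest in the TAF10KO library of each. Over the date codes Taf10 differed by 0.06 on the log2 scale (adjusted p = 0.714, edgeR), and with upper-quartile scaling by -0.02. It was called higher without the first TAF10HET library (0.315, adjusted p = 0.014) and in WT and TAF10KO libraries only (0.315, adjusted p = 0.0288), and its sign turned without either WT or either TAF10KO library. The TAF10HET library of the first date code stood apart from the other 6: the small nuclear RNA Rn7sk was at 196 CPM there against 2.59 to 15.4 CPM elsewhere, and the 12 heart and skeletal muscle genes summed to 157 CPM against 10.7 to 20.6 CPM. It was also, with the TAF10KO library of the second date code, the male of its set by Xist and Y-linked genes. The part of these differences in the results below was not tested, and results that turn on that library are given without it as well.

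The date codes differed across much of the transcriptome. Of 15350 genes with enough reads to test, 2897 (18.9%) were higher and 3526 (23%) were lower on the second date code at an adjusted p under 0.05 in edgeR's quasi-likelihood test, which together is 41.8%. The losses were the larger changes: 1725 genes fell at least by 1 on the log2 scale and 123 rose by as much. The median difference was -0.98 among genes called lower, 0.38 among genes called higher and 0.02 over all genes tested. Of the 6423 called genes, 6358 had the same direction within WT, within TAF10HET and within TAF10KO. These genes were called on the same libraries with a common date term, which favours genes of like direction. That agreement is therefore no separate support. CPM ranges that did not overlap between the date codes were found for 18.9% of the tested genes in the higher direction and 23.8% in the lower. Between TAF10KO and WT 92 genes (0.599%) were called in the same fit, and 584 in DESeq2. That contrast rests on fewer libraries, so the counts do not compare the sizes of the date and genotype differences. The count of higher genes depended on single libraries: it was 809 without the first WT library, 883 without the second WT library, and 1931 and 1695 without the second TAF10HET livers 2 and 4. Of the called genes 45.1% were higher with the main scaling and 30.8% with upper-quartile scaling, which placed the median of all genes at -0.06.

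**Figure D1:**
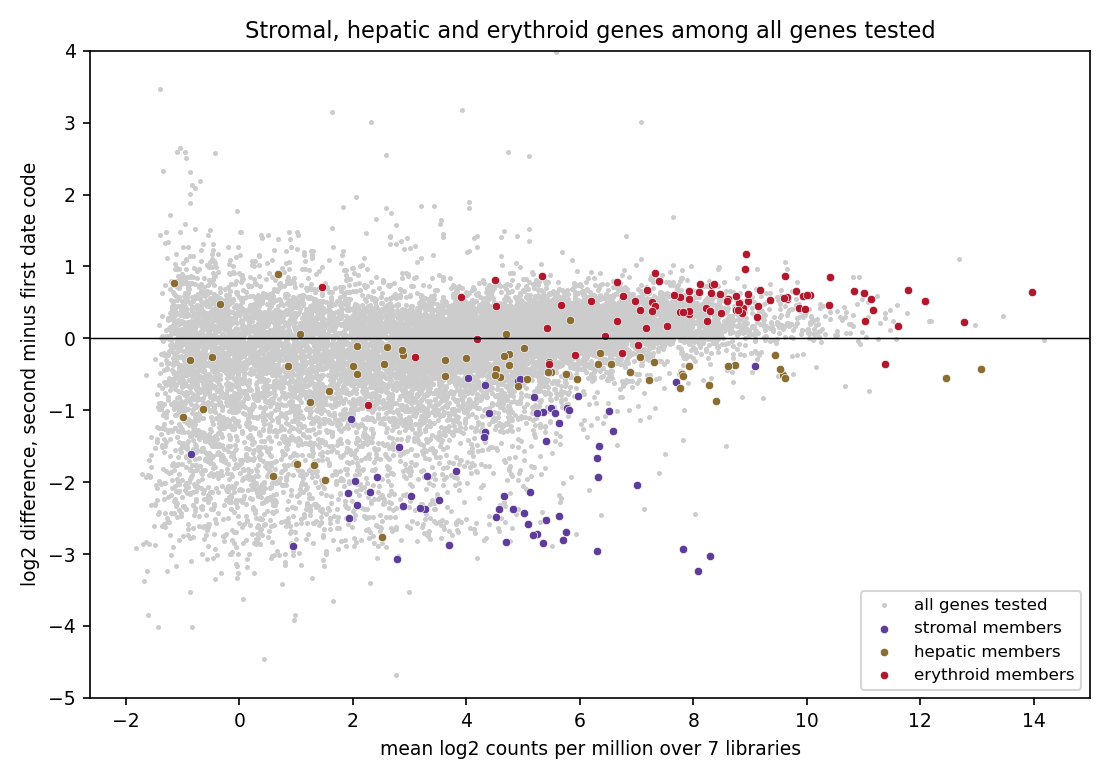
Difference between the second and the first date code (log2, second minus first, vertical axis) against mean expression (log2 CPM, horizontal axis) for every gene tested. The stromal, hepatic and erythroid gene lists are in colour. The stromal genes lie mainly below the line at 0 and the erythroid genes mainly above it. A further 26 genes fall outside the plotted range.

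Stromal genes were lower almost throughout. Over 5 lists of stromal genes (endothelial, stellate and mesenchymal, extracellular matrix, mesothelial, smooth muscle), 62 of 64 genes tested were lower on the second date code, beside 23% of all genes, and the other 2, Fn1 and Cnn1, were not called. Their median difference was -2.01, beside 0.02 over all genes. Erythroid genes moved the other way, with 67 of 88 higher and 3 lower and a median of 0.52. Hepatic genes lay between, with 38 of 63 lower and a median of -0.43. In bulk RNA, fewer cells of a type and less RNA per cell cannot be told apart.

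**Figure D2:**
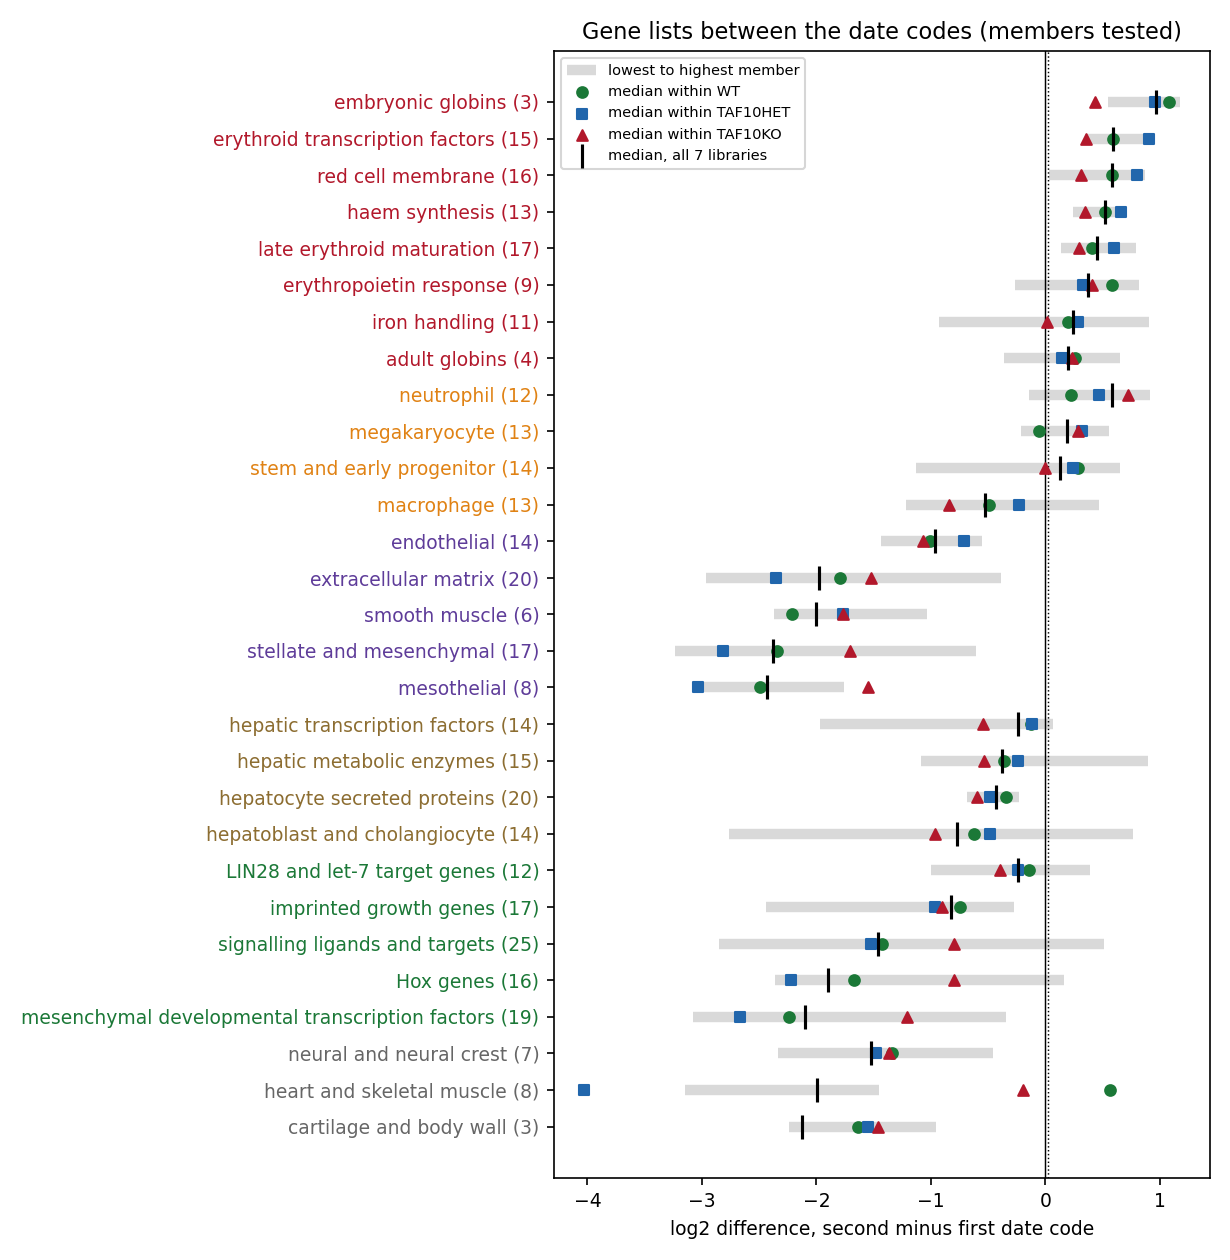
Median difference between the date codes (log2, second minus first, horizontal axis) for 29 gene lists, within WT, TAF10HET and TAF10KO (markers) and in the fit over all 7 libraries (black tick), with grey bars from the lowest to the highest member and a dotted line at the median of all genes. Mesothelial, mesenchymal and matrix lists lie far below it in each genotype, with smaller falls within TAF10KO, while the haem, membrane and erythroid transcription factor lists lie above the dotted line in each.

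Fibrillar collagens and other products of mesenchymal cells fell. Col1a1, the main chain of type I collagen, was at 370.3, 770.1 and 508 CPM on the first date code and at 46.3, 54.8, 54.5 and 81.5 CPM on the second. Every library of the first set was far above the highest of the second, and the fitted difference was -3.23 ± 0.22 (log2, SE, adjusted p = 0.000297, edgeR). Postn, which encodes the matrix protein periostin, was at 74.6, 97.4 and 68.0 CPM against 11.2, 9.89, 9.38 and 13.7 CPM. The groups did not overlap, and the difference was -2.84 ± 0.18 (adjusted p = 0.000193). All 17 tested members of the stellate and mesenchymal list were lower, with a median of -2.38, which is 5.19-fold. Their CPM did not overlap between the date codes for any of the 17, and together they took 0.189 to 0.317% of gene counts on the first date code and 0.0411 to 0.0559% on the second. The median was -2.34 within WT, -2.81 within TAF10HET and -1.71 within TAF10KO.

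Stellate cell genes differed in depth among themselves. Lhx2, a transcription factor of hepatic stellate cells, fell by 2.25, and Ngfr, a surface marker of the same cells, fell by 2.33 on the log2 scale. Colec11, a collectin made in the fetal liver, was at 15.8, 18.6 and 18.9 CPM against 3.43, 2.90, 3.22 and 3.99 CPM, a difference of -2.38 ± 0.12 (adjusted p = 0.000138). Acta2, the smooth muscle actin of activated stellate cells and vessel walls, was at 32.2, 59.5 and 40.6 CPM against 6.39, 8.92, 7.91 and 11.4 CPM. Reln, also a gene of stellate and lymphatic endothelial cells, had the least difference of the list: 256, 225 and 296 CPM against 199.8, 148, 180.1 and 143 CPM, or -0.61 (adjusted p = 0.0121). Lhx2, Ngfr and Reln were picked out after their values were seen.

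Mesothelial genes also fell. All 8 tested members were lower, with no overlap of the date codes and a median of -2.43. Upk3b, a uroplakin of the mesothelial surface, was at 22.4, 35.7 and 18.5 CPM on the first date code against 2.73, 3.36, 2.87 and 4.70 CPM on the second. Its difference was -2.88 ± 0.27 (adjusted p = 0.000508). Aldh1a2, which makes retinoic acid, was at 8.39, 16.8 and 15.7 CPM against 1.39, 2.70, 0.879 and 1.56 CPM, or -3.07. Lrrn4, a membrane protein of mesothelium, fell by 2.50. Of 6 smooth muscle genes 5 were lower, among them Actg2 (-2.32) and Myl9 (-1.03), a light chain of contractile myosin.

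Of 20 matrix genes, 19 were lower, with no overlap for those 19 and a median of -1.97. Col5a2, a chain of type V collagen, fell by 2.96, and Fbln2, a fibulin, was at -2.84. Nid1, the nidogen that links laminin to collagen IV, was at 103, 130.01 and 152 CPM against 40.1, 40.0, 43.8 and 56.4 CPM, or -1.49 ± 0.07 (adjusted p = 0.000121). Lama1, a laminin chain, fell by 1.91. Fn1, fibronectin, which hepatocytes also secrete, was at 519.8, 517 and 903 CPM against 518, 403, 458 and 473 CPM; these ranges overlap and it was not called in edgeR (-0.39, adjusted p = 0.0893), while DESeq2, upper-quartile scaling and no filter each called 20 of 20 matrix genes lower.

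Endothelial genes were lower by a smaller factor. All 14 members were called, with a median of -0.97, and 11 did not overlap. Tek, the angiopoietin receptor of endothelium, was at 29.6, 30.5 and 30.4 CPM on the first date code and at 11.1, 11.8, 11.8 and 14.0 CPM on the second, which was -1.30 ± 0.09 (adjusted p = 0.000193). Kdr, the main VEGF receptor, was at 68.0, 61.3 and 102 CPM against 33.1, 36.0, 31.3 and 50.1 CPM, or -0.96. Pecam1, an adhesion molecule of all endothelium, was at 32.9, 32.0 and 48.0 CPM against 20.2, 21.7, 20.7 and 33.8 CPM. Its date codes overlap, because the TAF10KO library was the highest in each set, and the fitted difference was -0.60 (adjusted p = 0.000916).

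Within the endothelium, 2 further lists were drawn up after values had been seen. The arterial list (9 of 10 lower) had a median of -1.68 and the list of liver sinusoid genes (5 of 9 lower) a median of -0.999. Jag1, a Notch ligand of arterial and portal mesenchymal cells, was at 9.81, 10.7 and 11.4 CPM against 1.53, 1.62, 1.46 and 2.07 CPM, or -2.64 ± 0.13 (adjusted p = 0.000137). Gja5, the connexin of arterial endothelium, fell by 2.37. Stab2, the scavenger receptor of sinusoids, was at 71.6, 60.3 and 106 CPM against 35.2, 42.1, 36.6 and 39.1 CPM, or -0.999. Whether the arterial and sinusoidal lists differ from each other was not tested. Oit3, a further sinusoid gene, fell by 1.04, while F8, the clotting factor gene of the same cells, was at 3.68 to 4.05 CPM against 2.64 to 3.98 CPM and was not called (adjusted p = 0.321).

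The promoters of 3 stromal genes are shown because these genes had the smallest adjusted p of the called stromal members with an entry in the RefSeq promoter table (GRCm38.p6). Each sequence holds the 250 bases before the annotated start, written 5′ to 3′ on the strand of the gene. They are Col5a1 (chr2:27886175-27886424, plus strand), Nid1 (chr13:13437352-13437601, plus strand) and Colec11 (chr12:28623331-28623580, minus strand). Capitals mark 2 short motifs on either strand, GGGCGG (the GC box) and AGATAA (known from the sites of GATA factors); a CCACACCC box was searched too, and it can share bases with a GC box.
Col5a1: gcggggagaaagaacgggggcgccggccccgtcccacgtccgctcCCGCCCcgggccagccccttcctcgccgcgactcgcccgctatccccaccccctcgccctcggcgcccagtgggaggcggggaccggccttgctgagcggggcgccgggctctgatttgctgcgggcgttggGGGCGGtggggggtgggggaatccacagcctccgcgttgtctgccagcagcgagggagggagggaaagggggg
Nid1: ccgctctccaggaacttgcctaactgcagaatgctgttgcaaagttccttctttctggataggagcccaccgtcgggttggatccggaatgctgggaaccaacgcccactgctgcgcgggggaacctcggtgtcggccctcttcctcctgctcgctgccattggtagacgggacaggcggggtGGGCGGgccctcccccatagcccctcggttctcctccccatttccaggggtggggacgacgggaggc
Colec11: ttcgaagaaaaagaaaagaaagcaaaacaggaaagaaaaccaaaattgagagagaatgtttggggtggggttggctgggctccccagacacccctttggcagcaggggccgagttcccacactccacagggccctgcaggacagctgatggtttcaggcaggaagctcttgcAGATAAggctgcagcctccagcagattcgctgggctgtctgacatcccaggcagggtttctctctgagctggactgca
Col5a1 and Nid1 hold GC boxes, and Colec11 holds an AGATAA. Among 41 called stromal genes with a promoter entry, of 62, an AGATAA was in 4.9% and a GC box in 43.9%, beside 6.2% and 57.8% of the 11263 promoters of tested genes. A match describes these letters and is no evidence of binding.

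Developmental regulators of mesenchyme were lower together with these products. Of 19 mesenchymal transcription factors tested, 17 were lower, with a median of -2.10. Foxf1, a forkhead factor of visceral mesenchyme downstream of hedgehog signals, was at 16.8, 17.4 and 18.6 CPM against 2.04, 2.86, 2.17 and 4.13 CPM, a difference of -2.63 ± 0.18 (adjusted p = 0.000193). Gata6, a GATA factor of mesenchyme and endoderm, was at 27.98, 35.9 and 28.8 CPM against 9.27, 9.73, 10.9 and 12.46 CPM, or -1.56. Snai2, a repressor that marks mesenchymal cells, fell by 2.30. Zeb1, a repressor of the same kind that blood cells also express, had the least difference among the called factors (-0.35, adjusted p = 0.0178) and was picked out after its value was seen.

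Among Hox genes, the patterning genes of the body axis, 16 of the 29 in the files had enough reads, and 12 of these were lower with a median of -1.90. Without the first TAF10HET library 8 were lower with a median of -1.198, and without either WT library 8 were lower. The called genes all belonged to paralogue groups 2 to 6. Hoxa4 was at 2.85, 3.47 and 3.94 CPM against 0.371, 0.772, 0.586 and 0.941 CPM, or -2.36 ± 0.23 (adjusted p = 0.000476). Hoxa3 fell by 1.91 and Hoxb4 by 1.89. Hoxa9, a gene of blood stem and progenitor cells, was at 1.66 to 1.93 CPM against 1.68 to 2.36 CPM and was not called (0.16, adjusted p = 0.523). All of these levels are low, and a filter of at least 5 CPM in 3 libraries leaves 0 Hox genes to test.

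Of 25 signalling genes, 20 were lower and 1 was higher, with a median of -1.46. Among ligands, Bmp2 was at 7.004, 8.71 and 9.47 CPM against 2.69, 3.01, 3.28 and 3.33 CPM, or -1.46 ± 0.12 (adjusted p = 0.000297). Tgfb1, a ligand that blood cells make, was the member that rose: 76.0, 66.8 and 93.9 CPM against 105, 106, 109 and 118 CPM, or 0.51 (adjusted p = 0.00265). Its relatives Tgfb2 and Tgfb3, which mesenchyme expresses, fell by 1.85 and 2.56. Among targets, Gli1, the readout of hedgehog signalling, was at 10.5, 11.7 and 10.5 CPM against 1.11, 2.43, 1.23 and 1.47 CPM, or -2.85 ± 0.22. Ptch1, which is likewise a hedgehog target and encodes its receptor, was at 25.3 to 41.3 CPM against 27.1 to 30.7 CPM and was not called (-0.06, adjusted p = 0.755). The Tgfb genes and Ptch1 were picked out after their values were seen.

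Imprinted genes, which are expressed from 1 parental copy and govern fetal growth, were lower in 16 of 17 cases. As a list they took 1.04 to 1.11% of gene counts on the first date code and 0.568 to 0.648% on the second. H19, a long noncoding RNA of fetal liver, was at 2855, 2846 and 2798 CPM against 1794, 1635, 1734 and 1627 CPM, or -0.74 ± 0.07 (adjusted p = 0.000495). Igf2, its neighbour, which encodes a fetal growth factor, was at 2002, 2104 and 2105 CPM against 1467, 1230.3, 1381 and 1174 CPM, or -0.66. Cdkn1c, an inhibitor of cell division, was at 326, 426 and 292 CPM against 131, 129.8, 129.5 and 136 CPM, or -1.41. The date codes did not overlap for any of these 3 genes. Mest and Ndn, which mesenchymal cells express, fell by 1.61 and 2.02.

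The LIN28 and let-7 group, which distinguishes fetal from adult blood formation, did not move as a block. Of 12 members 5 were lower and 3 higher, beside 23% and 18.9% of all genes, with a median of -0.24. Lin28b, the RNA-binding protein that blocks let-7 maturation, was at 67.5, 61.6 and 61.9 CPM against 90.1, 83.5, 87.1 and 74.6 CPM, or 0.39 ± 0.06 (adjusted p = 0.00308). Hmga2, a chromatin protein that let-7 represses, went the other way: 161, 176 and 155 CPM against 82.3, 78.8, 75.9 and 89.4 CPM, a level 0.5001 times as high (adjusted p = 0.000291). Igf2bp2 fell by 0.68, while Igf2bp3, at 42.0, 44.1 and 44.0 CPM against 39.8, 34.3, 39.4 and 34.7 CPM, was not called (-0.23, adjusted p = 0.057), although it was called with upper-quartile scaling (adjusted p = 0.0176). Without the first WT or the second WT library, the higher members numbered 1 and the lower 3.

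Over the 5 developmental lists 69 of 88 genes were lower and 4 higher, beside 23% and 18.9% of all genes, with a median of -1.49. The lower count was 53 without the first WT library, 53 without the second WT library and 59 without the first TAF10HET library, where the median was -1.09.

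Hepatic genes were lower by much less than stromal ones. Alb, albumin, was at 7194, 6680.4 and 6832 CPM on the first date code and at 5621, 4517, 4469 and 4099.9 CPM on the second, which was -0.56 ± 0.09 (adjusted p = 0.00322). The highest library of the second set was its WT library, and no value reached the first set. Afp, alpha-fetoprotein, was at 10329, 8806 and 11319 CPM against 8810.0, 6596, 6987 and 6989.9 CPM, or -0.43 (adjusted p = 0.0143), with an overlap of the date codes. Of the 20 secreted proteins 17 were lower, with a median of -0.43. The fibrinogen chains Fgb and Fgg fell by 0.69 and 0.58 and the apolipoprotein Apoa2 by 0.64. Together the secreted proteins took 2.10 to 2.39% of gene counts on the first date code and 1.48 to 1.95% on the second. The median was -0.34 within WT, -0.49 within TAF10HET and -0.60 within TAF10KO.

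The hepatic transcription factors differed little, with the exception of a bile acid receptor. Hnf4a, the master regulator of the hepatocyte lineage, was at 88.0, 77.1 and 101 CPM against 84.0, 71.1, 76.1 and 71.5 CPM, and it was not called (-0.20, adjusted p = 0.121). Nr1h4, the bile acid receptor FXR, was at 5.62, 5.13 and 3.75 CPM against 1.34, 1.04, 1.23 and 1.22 CPM, or -1.97 ± 0.19 (adjusted p = 0.000416). It fell without overlap, and it was the lowest of the 14 tested. Nr5a2 (-0.53, adjusted p = 0.0268) and Prox1 (-0.32, adjusted p = 0.0402), nuclear factors of hepatoblasts, were called with all 7 libraries. In all 5 of 14 factors were called lower, beside 23% of all genes, with a median of -0.24. The count fell to 1 without the first WT library, the second WT library or the second TAF10HET liver 2, and to 3 without any of the others except the first TAF10HET library.

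Enzymes of hepatic metabolism gave 6 of 15 lower, beside 23% of all genes, and a median of -0.38. Otc, an enzyme of the urea cycle, was at 34.2, 31.3 and 21.1 CPM against 24.6, 21.9, 21.3 and 13.9 CPM, or -0.54 ± 0.07 (adjusted p = 0.00128), and its ranges overlap because the TAF10KO library was the lowest of each set. Gys2, the glycogen synthase of liver, fell by 0.46. The lower count was 3 without either WT library.

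The epithelial list of hepatoblast and bile duct genes had 10 of 14 lower, beside 23% of all genes, and a median of -0.77. Krt8, a keratin of hepatoblasts, was at 68.3, 62.9 and 62.9 CPM against 50.1, 46.5, 41.7 and 44.5 CPM, or -0.49 ± 0.06 (adjusted p = 0.00128). Gpc3, a proteoglycan of fetal liver, was at 423, 438 and 512 CPM against 264, 228, 240.2 and 252 CPM, or -0.87. Krt7, a keratin of bile ducts and mesothelium, fell further: 9.56, 15.2 and 8.11 CPM against 0.834, 1.62, 1.46 and 2.59 CPM, or -2.76 ± 0.33 (adjusted p = 0.00105). Over all hepatic lists the lower count went from 38 to 27 without the first WT library and to 24 without the second WT library.

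**Figure D3:**
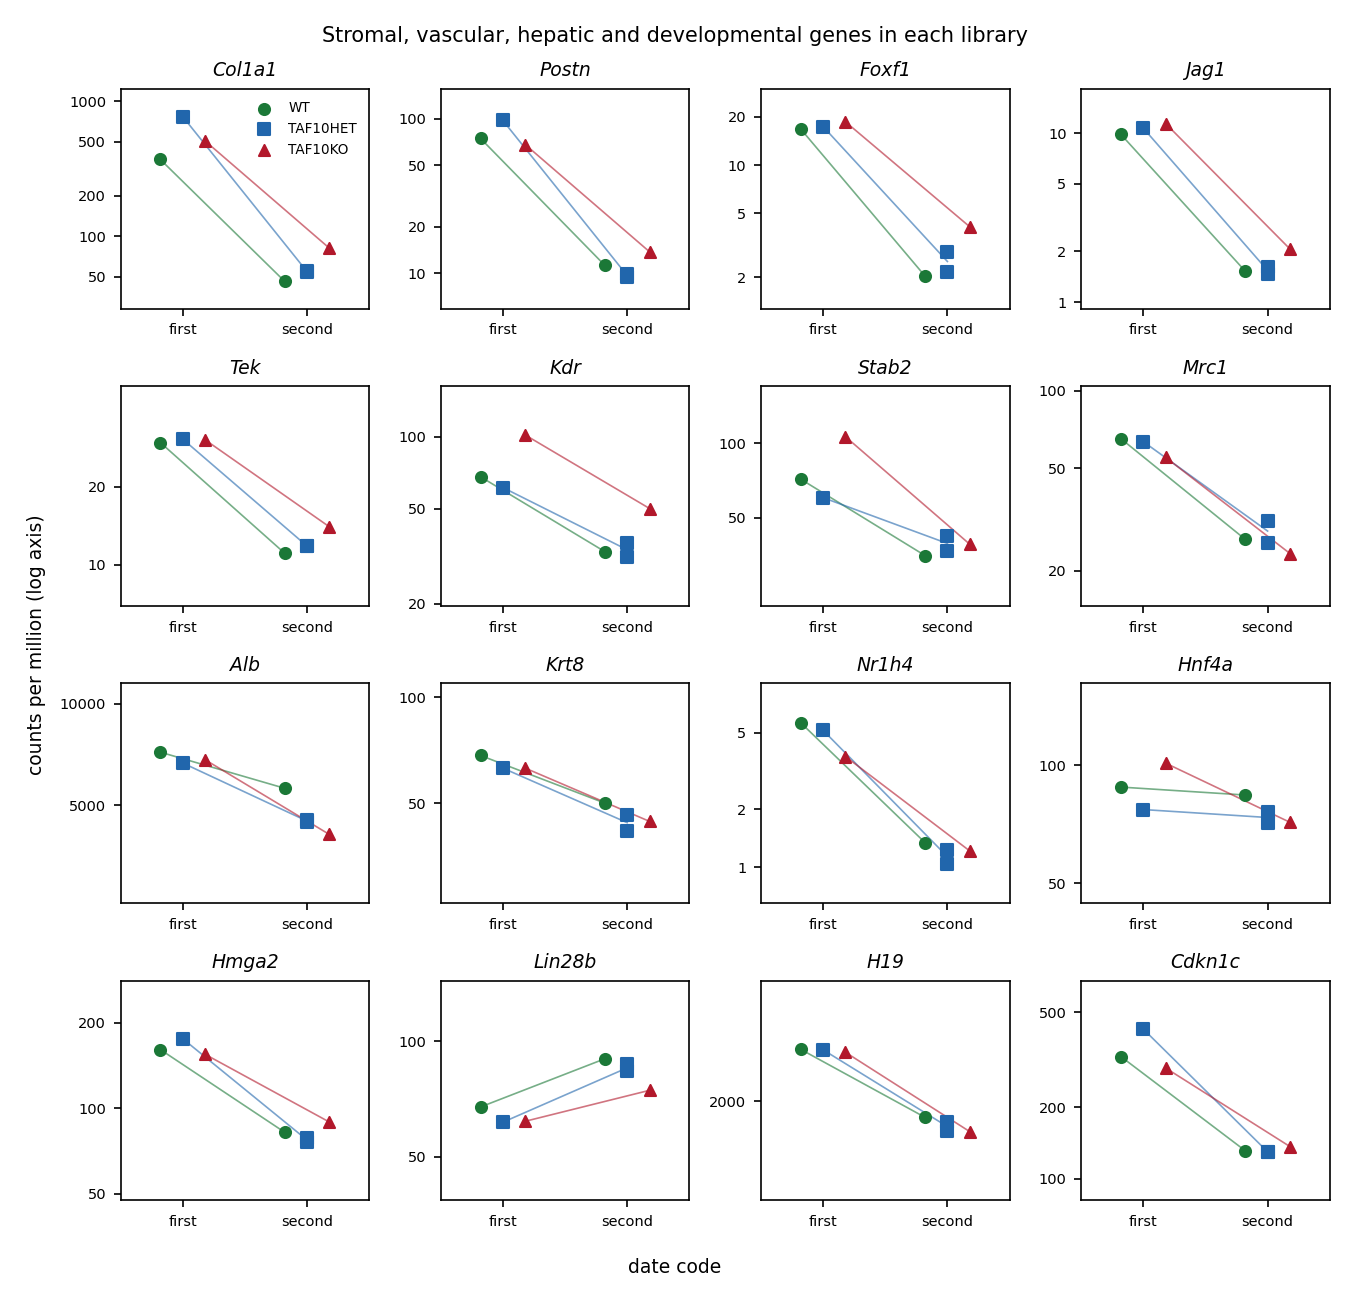
CPM (vertical axis, log scale) of 16 stromal, hepatic and developmental genes in each of the 7 libraries by date code (horizontal axis), coloured by genotype, with lines joining the genotype means. Col1a1 falls from between 370.3 and 770.1 CPM to between 46.3 and 81.5 CPM, Alb and Hnf4a change far less, and Lin28b rises where Hmga2 falls.

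Erythroid genes were higher on the second date code by a modest factor. Of 88 genes in 8 lists 67 were higher, beside 18.9% of all genes, and the 3 that were lower, Hfe, Fbxl5 and Aco1, belong to iron handling. The higher count was 37 without the first WT library and 41 without the second WT library, while the median stayed between 0.43 and 0.55 in every alternative run.

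Embryonic globins rose in all 3 genotypes. Hbb-bh1, a beta-like globin of primitive red cells, was at 234, 433 and 188 CPM on the first date code and at 493, 763, 925 and 339 CPM on the second, or 0.96 ± 0.09 (adjusted p = 0.000419). Hbb-y, the main beta-like globin of these cells, was at 1938, 1970.5 and 1074 CPM against 2898, 3364, 3014 and 1345 CPM, or 0.55 (adjusted p = 0.00464). Hba-x, the embryonic alpha-like globin, was at 318, 282 and 113 CPM against 801, 893, 847 and 153 CPM, or 1.17 (adjusted p = 0.00624). The date codes overlap for each gene, because TAF10KO libraries were the lowest on both, but within each genotype the second date code was the higher. Without the first WT library Hbb-y was no longer called (adjusted p = 0.0527). With no genotype term Hbb-bh1, Hbb-y and Hba-x were not called (adjusted p = 0.0906, 0.167 and 0.159, edgeR). For Hba-x the rise was 1.33 within WT, 1.62 within TAF10HET and 0.43 within TAF10KO.

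Adult globins did not rise as a group. Hbb-bs, the major adult beta globin, was at 13047, 14413 and 8921 CPM against 24145, 18346, 16270.0 and 17228 CPM, or 0.65 ± 0.15 (adjusted p = 0.011), without overlap. Without the first WT library its adjusted p was 0.118, and without the second WT library 0.0901. Hba-a1, an adult alpha globin, was at 5818, 6996 and 5707 CPM against 6715, 10464, 6494 and 6436 CPM and was not called (0.23, adjusted p = 0.285). Hbb-bt, the other adult beta globin, was at 968, 4979.6 and 1074 CPM against 693, 5406, 4911 and 636 CPM. It separated the 3 TAF10HET libraries from the 4 lox/lox ones on both date codes, and its date difference was not called (-0.36, adjusted p = 0.0926). It was called lower in DESeq2 (adjusted p = 0.0299), with upper-quartile scaling (0.047), with no filter (0.0026), with embryo sex as a term (4.36e-05), in WT and TAF10KO libraries only (-0.62, adjusted p = 0.00123) and without the first TAF10HET library (-0.62, adjusted p = 0.00139), and its sign turned with no genotype term (0.32). The near-identical sequences of Hba-a1 and Hba-a2, and of Hbb-bs and Hbb-bt, make the split of reads within each pair uncertain.

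Erythroid transcription factors were higher in 14 of 15 cases, 13 without overlap, with a median of 0.59. Gata1, the zinc finger factor that drives red cell differentiation, was at 193, 191 and 186 CPM against 291, 301, 279 and 254 CPM, or 0.55 ± 0.07 (adjusted p = 0.00104). The libraries within each set were close, and the lowest of the second set, TAF10KO, still exceeded all of the first. Klf1, the Krüppel-like factor of adult globin expression, was at 284, 248 and 269 CPM against 427, 489, 452 and 316 CPM, or 0.61 (adjusted p = 0.00822), and it missed the threshold without the first WT library (adjusted p = 0.0559) or the second WT library (adjusted p = 0.0579). Bcl11a, which silences embryonic globins in definitive cells, was at 86.1, 77.6 and 90.3 CPM against 128, 119.9, 125 and 129 CPM, or 0.59. Foxo3, a factor of late maturation, was at 182, 181 and 235 CPM against 303, 369.8, 330.1 and 336 CPM, or 0.75. Zbtb7a was the factor not called in edgeR (0.51, adjusted p = 0.0515); DESeq2, median-of-ratios scaling, non-robust dispersions, no filter and embryo sex as a term each called 15 of 15. Within TAF10KO the median of the list was 0.35, beside 0.59 within WT and 0.90 within TAF10HET.

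Genes of haem synthesis rose in 12 of 13 cases, with a median of 0.52. Alas2, the first enzyme of the pathway in red cells, was at 918, 864 and 649 CPM against 1345, 1493, 1206 and 979 CPM, or 0.60 ± 0.09 (adjusted p = 0.00273), without overlap. Ppox, a late enzyme, rose by 0.52 and Tmem14c, a porphyrin carrier of mitochondria, by 0.44. Genes of the red cell membrane rose in 15 of 16 cases, with a median of 0.58: Gypc, a glycophorin, by 0.65, Rhag, of the Rh complex, by 0.59 and Tmod1, which caps actin filaments, by 0.79. Without the first WT or the second WT library the haem counts were 5 and 6, and the membrane counts were 8 and 8.

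Late maturation genes were higher in 13 of 17 cases, with a median of 0.45. Ypel4 was at 121, 132 and 95.2 CPM against 208, 239, 213 and 167 CPM, or 0.79 ± 0.07 (adjusted p = 0.000305). Fam210b, a mitochondrial protein of erythroid cells, rose by 0.64 and Ube2o, which marks ribosomal proteins for removal in maturing red cells, by 0.58. The count was 6 without the first WT library and 8 without the second WT library.

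Iron handling genes were higher in 4 of 11 cases and lower in 3, beside 18.9% and 23% of all genes. The lower share was close to that of all genes. Fth1, the ferritin heavy chain that stores iron, was at 1419, 1470.1 and 1814 CPM against 2272, 2481, 2476 and 2408 CPM, or 0.63 ± 0.09 (adjusted p = 0.00197). Ncoa4, which delivers ferritin for breakdown, rose by 0.66. Hfe, a regulator of iron uptake that hepatocytes express, fell by 0.93; the count of lower members was 1 without either WT library. Tfrc, the transferrin receptor, was at 2292, 2023 and 1282 CPM against 2632, 2727, 2224 and 1474 CPM and was not called (0.24, adjusted p = 0.0802).

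Targets of erythropoietin were higher in 5 of 9 cases, beside 18.9% of all genes, with a median of 0.38. Pim1, a survival kinase induced by the receptor, was at 150.1, 162 and 156 CPM against 231, 237, 221 and 256 CPM, or 0.60 ± 0.07 (adjusted p = 0.000856). Cish, a feedback inhibitor, rose by 0.58 and Erfe, the hormone that frees iron, by 0.82. Epor, the receptor from whose gene the Cre is expressed, was at 158, 157 and 83.3 CPM against 238, 139, 125 and 99.1 CPM and was not called (0.15, adjusted p = 0.44). It was called without the first TAF10HET library (0.42, adjusted p = 0.0111), and its sign turned without the first WT library (-0.06) and without the second WT library (-0.03). The count of higher targets was 3 without either WT library.

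The promoters of 3 erythroid genes are shown as those with the smallest adjusted p among the called erythroid members whose promoter holds an AGATAA, the GATA factor site. They are Alas2 (chrX:150547167-150547416, plus strand), Tal1 (chr4:115056176-115056425, plus strand) and Kel (chr6:41704326-41704575, minus strand), again as the 250 bases before the start in the RefSeq table of GRCm38.p6, with AGATAA and GGGCGG of either strand in capitals.
Alas2: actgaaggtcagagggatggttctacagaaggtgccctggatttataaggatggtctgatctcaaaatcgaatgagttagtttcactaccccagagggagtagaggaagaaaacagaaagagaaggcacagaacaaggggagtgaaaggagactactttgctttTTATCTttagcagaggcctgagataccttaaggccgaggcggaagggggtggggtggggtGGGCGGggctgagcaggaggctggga
Tal1: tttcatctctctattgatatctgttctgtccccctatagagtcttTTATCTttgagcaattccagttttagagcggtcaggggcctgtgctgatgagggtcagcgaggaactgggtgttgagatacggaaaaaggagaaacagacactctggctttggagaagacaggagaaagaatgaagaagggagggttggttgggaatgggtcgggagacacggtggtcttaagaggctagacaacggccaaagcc
Kel: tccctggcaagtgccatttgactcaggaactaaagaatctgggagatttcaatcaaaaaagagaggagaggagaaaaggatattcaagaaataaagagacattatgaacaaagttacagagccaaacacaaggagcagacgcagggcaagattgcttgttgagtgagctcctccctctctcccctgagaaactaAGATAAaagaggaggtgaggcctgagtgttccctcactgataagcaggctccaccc
Alas2 holds the GATA site as its complement TTATCT and, further on, a GC box; Tal1 holds TTATCT, and Kel holds AGATAA near the start. Tal1, a partner of Gata1 in erythroid gene control, was at 434, 403 and 443 CPM against 691, 783, 722 and 567 CPM, or 0.67 (adjusted p = 0.00336). Kel, a blood group protein of the membrane, rose by 0.56. Of 67 called erythroid genes 49 had a promoter entry, and AGATAA was in 14.3% of these (7 genes), beside 6.2% of promoters of tested genes and 10.2% of all 27025 in the table. CCACACCC, the box bound by Klf1, was in 2.0% beside 3.5%, and GC boxes in 53.1% beside 57.8%. These shares describe letters in 250 bases and say nothing of distal sites.

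**Figure D4:**
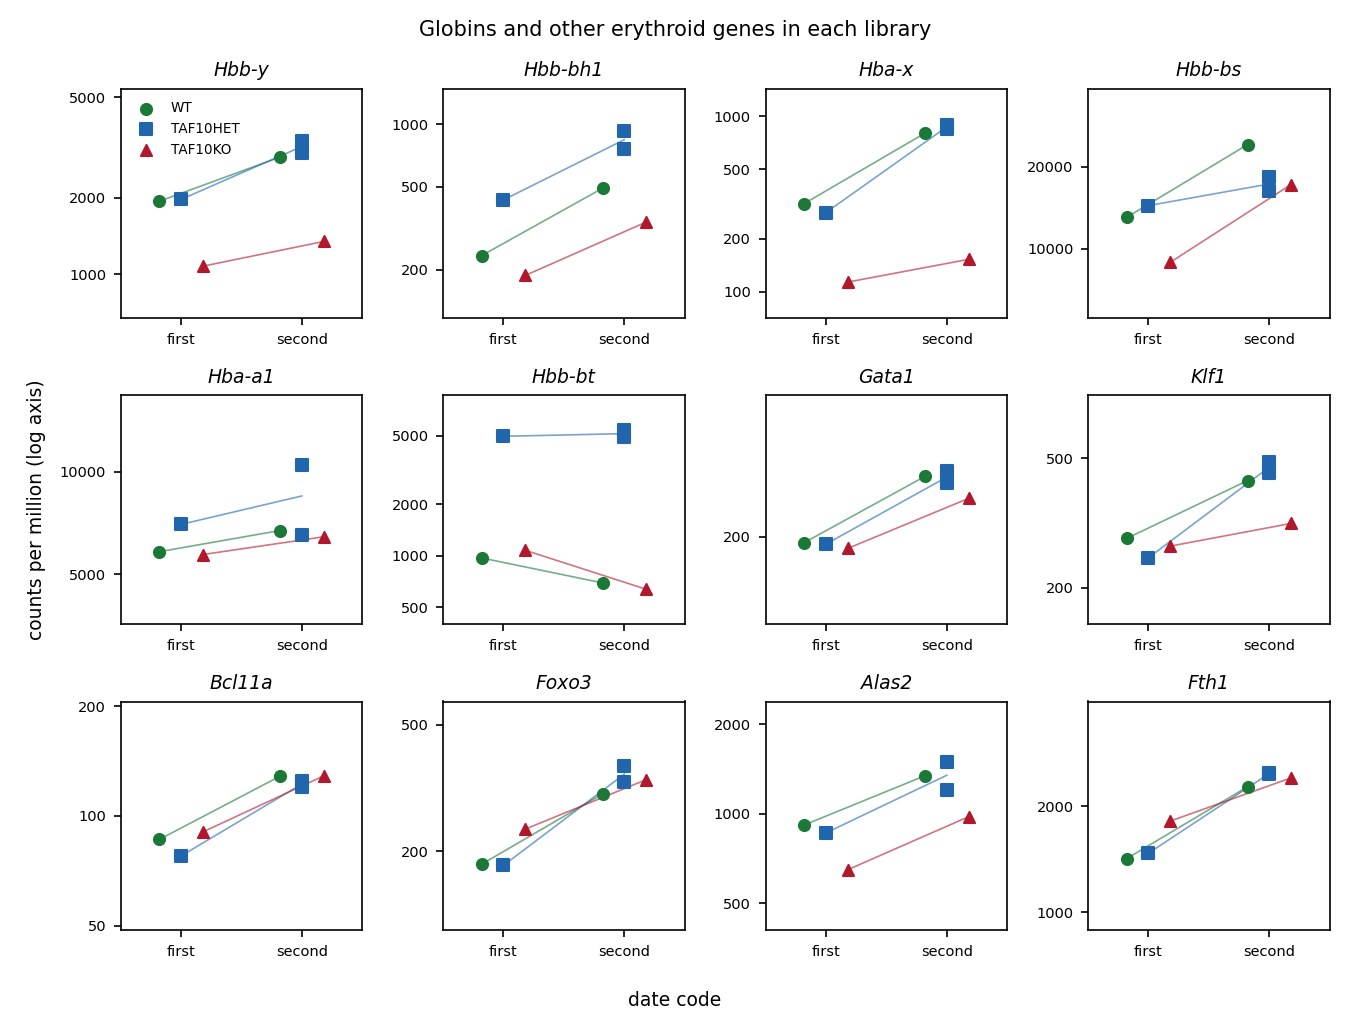
CPM (vertical axis, log scale) of 12 globin and erythroid genes in each of the 7 libraries by date code (horizontal axis), coloured by genotype, with lines joining the genotype means. Gata1, Foxo3, Alas2 and Fth1 rise in every genotype without overlap, the embryonic globins rise within each genotype, and Hbb-bt separates TAF10HET from the other libraries.

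Over 6 lists of other blood lineages 15 of 56 genes were higher and 12 lower, beside 18.9% and 23% of all genes. Macrophage genes were lower in 8 of 13 cases and higher in 1, with a median of -0.53. Mrc1, the mannose receptor that sinusoidal endothelium shares, was at 65.2, 63.5 and 55.2 CPM against 26.5, 31.4, 25.7 and 23.3 CPM, or -1.22 ± 0.08 (adjusted p = 0.000195). Adgre1, the F4/80 antigen, which is closer to a pure macrophage marker and was picked out after its value was seen, fell by 0.52 with overlapping ranges. The lower count was 4 without either WT library.

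Neutrophil genes were higher in 6 of 12 cases, beside 18.9% of all genes. Their median was 0.58, and it was 0.34 without the first or the second TAF10KO library. Their count was 1 with no genotype term and 4 without either WT library. Mpo, myeloperoxidase, was at 69.8, 63.9 and 116 CPM against 131, 130.1, 106 and 199 CPM, or 0.86 ± 0.09 (adjusted p = 0.000476), with overlap. Eosinophil granule genes, a list added after Prg2 was seen among the largest rises, were higher in 7 of 8 cases with a median of 1.40. Prg2, their major basic protein, was at 58.3, 30.2 and 109 CPM against 139, 146, 119 and 186 CPM, or 1.42 ± 0.27 (adjusted p = 0.0102). The count for that list was 4 without the first WT, the second WT or the first TAF10HET library, and 1 with no genotype term.

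Stem and progenitor genes split, with 6 of 14 higher and 4 lower, beside 18.9% and 23% of all genes. Runx1, a factor of blood stem cells and myeloid cells, was at 25.5, 27.95 and 34.1 CPM against 38.6, 39.7, 42.4 and 47.3 CPM, or 0.54 ± 0.07 (adjusted p = 0.00115). Mecom and Meis1, stem cell factors that endothelium or mesenchyme also express, fell by 1.13 and 0.63. The lower count was 2 without the first TAF10HET, the first WT, the second WT or the second TAF10HET liver 4 library. Megakaryocyte genes were called in 2 of 13 cases, beside 41.8% of all genes. For mast cells (2 genes tested) and lymphoid cells (2 genes tested) edgeR called none, DESeq2 called none and the count at an unadjusted p under 0.05 was 0. Cpa3 of mast cells was at 3.97 to 5.50 CPM against 4.91 to 5.92 CPM, and Il7r of lymphoid cells at 0.985 to 1.36 CPM against 1.23 to 1.77 CPM.

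Markers of tissues next to the liver were low, apart from muscle genes in the first TAF10HET library. Of the 22 with enough reads 14 were lower on the second date code, beside 23% of all genes. Barx1, a factor of stomach mesenchyme, was at 4.23, 6.02 and 4.87 CPM against 1.11, 1.16, 0.762 and 1.33 CPM, or -2.17 ± 0.22 (adjusted p = 0.000529). Dcx, of young neurons, was at 3.87, 6.59 and 2.61 CPM against 0.463, 1.04, 0.820 and 1.35 CPM, or -2.22. Sox5, of cartilage and other cells, fell by 0.96 and Krt14, of epidermis, by 2.37. The neural list (5 of 7 lower) summed to 15.3 to 16.9 CPM against 5.70 to 7.07 CPM and had 3 lower without the first WT library, and the gut list (2 of 2 lower) to 7.88 to 10.6 CPM against 1.05 to 3.48 CPM. The cartilage list (3 of 3 lower) summed to 11.64 to 12.498 CPM against 4.92 to 5.69 CPM. Single members were at or near 0. Ptf1a of pancreas and Nppa of heart had no read, each as the only such member of its list, and Sftpc of lung was at most at 0.0386 CPM. Other members had reads: 2 of 10 gut, stomach and pancreas genes and 8 of 12 heart and skeletal muscle genes had enough to test.

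Heart and skeletal muscle genes were by far the highest in the first TAF10HET library, with a sum of 157 CPM. The first WT and TAF10KO libraries, at 18.1 and 20.6 CPM, were also above the second date code, at 10.7 to 15.2 CPM. Their medians were 0.56 within WT, -4.03 within TAF10HET and -0.20 within TAF10KO. Myog, a muscle regulator, was at 0.182, 14.0 and 0.435 CPM on the first date code and at 0.176 to 1.12 CPM on the second. Tnnt2, a heart troponin, was called (-3.15, adjusted p = 0.00213), at 1.17, 8.45 and 1.55 CPM against 0.0927 to 0.541 CPM. Of 8 genes tested 3 were lower, beside 23% of all genes. Without the first TAF10HET library 3 were lower and 1 was higher. The single adrenal and gonad gene tested, Star, was at 2.48 to 2.86 CPM against 2.73 to 4.10 CPM and was not called (adjusted p = 0.391, unadjusted count 0, none in DESeq2). The part of neighbouring tissue in the mesenchymal results was not tested. Leaving out the first TAF10HET library cannot test it, because gut, neural and cartilage sums were higher in every library of the first date code. Without that library 62 stromal genes were called lower, with a median of -1.77.

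Proliferation genes were slightly higher, and the number called depended on single libraries. DNA replication gave 11 of 19 higher with a median of 0.31, and mitosis 8 of 16 with a median of 0.21. Of all genes 18.9% were higher. Ccne2, cyclin E2, was at 104, 103 and 67.0 CPM against 142, 126, 131 and 80.0 CPM, or 0.34 ± 0.06 (adjusted p = 0.00581). Ccna2, cyclin A2, was at 405, 373 and 343 CPM against 525, 517, 501 and 390.4 CPM, or 0.35 (adjusted p = 0.00964). Without the first WT library or without the second WT library the counts of both lists were 0 in edgeR, with medians of 0.26 and 0.29 for replication and 0.21 and 0.23 for mitosis. The other libraries moved them too: leaving out the first TAF10HET library gave 5 and 3 with a mitosis median of 0.13, the second TAF10HET livers 2 and 4 gave 5 and 2 and then 4 and 2, and either TAF10KO library gave 18 for replication.

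Genes of hypoxia and glycolysis were higher in 13 of 18 cases, beside 18.9% of all genes, with a median of 0.36. Aldoa, a glycolytic enzyme, was at 393, 357 and 1059 CPM against 600.3, 645, 599.9 and 1580.3 CPM, or 0.68 ± 0.08 (adjusted p = 0.000886); the TAF10KO library was the highest on both date codes. Adm, a vascular peptide, was the member that fell (-1.25). The count of higher genes was 3 without the first WT or the second WT library, and 8 without either second TAF10HET liver. The integrated stress response had 7 of 13 higher, beside 18.9% of all genes, and 3 without either WT library. Among its members Slc3a2, an amino acid transporter chain, rose by 0.61. Of the p53 targets Bax, a mediator of cell death, was the 1 of 12 that was called (0.48), beside 41.8% of all genes.

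Interferon response genes were lower in 6 of 12 cases and cholesterol synthesis genes in 8 of 14, beside 23% of all genes. Oasl2, an interferon-induced gene, was at 3.98, 4.56 and 4.22 CPM against 1.30, 1.70, 1.35 and 2.48 CPM, or -1.30 ± 0.22 (adjusted p = 0.00347). Cyp51, an enzyme of the sterol pathway, was at 131, 134 and 147 CPM against 84.3, 77.6, 84.3 and 96.6 CPM, or -0.66 ± 0.06 (adjusted p = 0.000416). The interferon count was 1 without either WT library and 3 without the second TAF10HET liver 4, and the cholesterol count was 4 without either WT library and 13 without the first TAF10HET library.

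Lists that can move with handling or RNA quality differed in part. Over 6 such lists 52 of 168 genes were higher and 6 lower, beside 18.9% and 23% of all genes. Of nuclear long noncoding RNAs 1 of 4 was lower, and of RNAs without a poly(A) tail 0 of 3 were called. Among 13 genes of the immediate-early and heat shock responses, which stress switches on quickly, 5 were higher and 1 lower. Fos, an early factor, was at 1.28, 1.40 and 1.71 CPM against 3.89, 3.28, 2.58 and 6.43 CPM, or 1.53 (adjusted p = 0.00184), while Egr1, also an early factor, fell by 0.72. The higher count was 8 without the first TAF10KO library and 3 without the second TAF10HET liver 2. Of 12 mitochondrially encoded genes 5 were higher and 1 lower, and the higher count was 0 without either WT library, 2 without the first TAF10KO library or the second TAF10HET liver 4, and 1 without the second TAF10KO library. Ribosomal protein genes gave 40 of 92 higher and 2 lower, with a median of 0.27. The name pattern for this list also took in the kinase Rps6ka6, which was 1 of the 2 lower. For the list, the higher count was 6 and 8 without the first and the second WT library. It was 24 with a median of 0.14 without either TAF10KO library and 22 without the second TAF10HET liver 4. Histones of the replication-dependent kind, whose mRNAs lack a poly(A) tail, gave 2 of 44 higher and 1 lower with a median of -0.93, but 19 higher and a positive median without the first TAF10HET library. The part of handling and RNA quality in the other results was not tested.

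The largest rises, by a rule that excludes pseudogenes, predicted genes, histones and genes on the sex chromosomes, were of mixed kind. Sag, arrestin of the retina, was at 11.3, 8.19 and 9.06 CPM against 32.3, 13.2, 17.1 and 35.0 CPM, or 1.43 ± 0.20. Rfesd, which carries an iron-sulphur domain, was at 91.0, 90.3 and 63.8 CPM against 210.7, 144, 171 and 169 CPM, or 1.11. Arl5c, Dnah8, Rex1bd, Pet100 and Usmg5 rose by between 1.015 and 1.14. The complex I gene mt-Nd3 rose by 1.06, but missed the threshold without either TAF10KO library (adjusted p = 0.0588 and 0.0574) or either WT library (adjusted p = 0.0733 and 0.0617). Eif3j2, at 19.2, 3.63 and 2.91 CPM against 51.4, 43.9, 42.4 and 23.5 CPM, rose by 2.59, but was no longer called without the first TAF10KO library (adjusted p = 0.113) or the second TAF10KO library (adjusted p = 0.108). It has a close relative in Eif3j1, so its reads may be split. Among the largest falls, Sfrp1, a secreted inhibitor of Wnt signals, and Cdh11, a cadherin of mesenchyme, fell by 2.89 and 2.82, and Sema3d, a guidance cue of mesothelium, by 2.82. Sema3d missed the threshold without the first TAF10HET library (adjusted p = 0.0699) or the second TAF10HET liver 2 (adjusted p = 0.0639).

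Among called genes, whose calling favours a common direction, the date difference was mostly alike in direction across genotypes but not always in size. A test of the date difference in TAF10KO against that in WT called 238 genes (1.55%), with 2404 at an unadjusted p under 0.05 and 1 residual degree of freedom, so that its spread comes only from the 2 TAF10HET livers of the second date code. Collagen and matrix genes were among them. Col3a1, of type III collagen, fell by 2.95 within WT and by 2.24 within TAF10KO, and Fbln2 fell by 3.10 and 1.83. Each genotype contributes 1 library per date code to that test, so the libraries and the genotypes cannot be told apart in it.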

How the data were processed

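RNA sequencing gave a table of read counts per gene for each of 7 libraries. The deposited values are raw whole-number counts per Ensembl gene made by the authors, with 39017 genes and 5 summary lines per file, and the summary lines were left out of library sizes and tests. The submitters' processing notes list the mm10 genome, the aligner TopHat2 (version 2.0.8) and DESeq2. For the counting program, annotation release and strand setting no statement was found (not given in the sources used here), so overlapping and antisense genes cannot be separated. Gene names came from GENCODE M21 (37607 of 39017 IDs matched). Libraries were prepared from 500 ng of total RNA with TruSeq v2, per the labels' protocols.

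Genes were kept with edgeR's default expression filter, scaled by TMM and tested with edgeR 4.0.16 (R 4.3.3), quasi-likelihood, robust, with genotype and date code as terms, 3 residual degrees of freedom and Benjamini-Hochberg adjustment over all 15350 genes at 0.05. Differences are log2, second minus first date code, ± SE. On simulated counts for this comparison, changes of 2 and 1 downwards were both recovered in 100% of genes, of 1 and 2 upwards in 94 and 98%, and 0.114% of unchanged genes were called. The simulation changed 50 genes at each size, all with a mean of at least 5 CPM. It had no genotype effects and independent libraries. In the real comparison 41.8% of genes were called, so these rates describe the simulated setting and not the error rate in these data. Nothing says the libraries share a litter or day beyond the code, or that each is a separate pregnancy, so p-values measure only the spread between these libraries. An exact permutation test of 3 against 4 libraries cannot go below p = 0.05714, so shares of reads are given as ranges. Depth per library (18008391 to 43401474 gene counts) sets counting error only.

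Members and lists were chosen with earlier results of these data known. Genes were named by this rule: the 10 largest rises and falls among called genes with mean log2 CPM of at least 3, no overlap and 1 direction in all genotypes, leaving out pseudogenes, predicted genes, histones and genes of chromosomes X and Y; from each stromal, erythroid, hepatic and developmental list the 3 members that were called at the lowest adjusted p, and from other lists 1; and a fixed set of marker genes. Further genes named beside them, and the arterial, sinusoidal and eosinophil lists, were chosen after their values were seen. A list is described by counts and its median. Alternatives were DESeq2 1.42.0, other scaling factors and filters, no genotype term, embryo sex as a term, WT and TAF10KO libraries only, non-robust dispersions, globins left out of totals, and each library left out in turn. Promoters came from RefSeq (GRCm38.p6), the most upstream start per gene, and entries on chromosome 18 were left out.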

Additional observations from a re-analysis of the deposited data

Results flagged for a closer look

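Among 120 values checked for a library far from the other 3 of the second date code, 12 were found. A rate of about 1 in 20 by chance would hold for independent values of like libraries. These 4 libraries are of 3 genotypes, and many of the genes were chosen by their date difference, so that rate does not apply here. For TAF10KO and WT, library and genotype cannot be told apart. Most were the TAF10KO library. It was the highest of its set for the collagens Col3a1 (115.64 CPM, the others 62.6 to 69.4) and Col1a2 (86.7 CPM, the others 47.8 to 53.4), and for the endothelial gene Pecam1 (33.8 CPM, the others 20.2 to 21.7). It was also highest for Mest, an imprinted gene (133 CPM, the others 81.5 to 87.5), Erfe, the erythroid iron hormone (43.3 CPM, the others 20.8 to 24.1), and Aldoa, a glycolytic enzyme (1580.3 CPM, the others 599.9 to 645). Bax (81.8 CPM, the others 73.4 to 74.7) and Egr1 (11.4 CPM, the others 7.91 to 8.50) followed the same order. For the embryonic globin Hba-x it was the lowest, at 152.78 CPM beside 801 to 893 CPM.

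The second TAF10HET liver 2 was far from the others for 2 genes. Its Hba-a1, adult alpha globin, was at 10464 CPM beside 6436 to 6715 CPM, and its Cpa3, of mast cells, at 4.91 CPM beside 5.79 to 5.92 CPM. The second WT library was far for Rps6ka6, a kinase that the name pattern for ribosomal proteins took in, at 41.7 CPM beside 37.6 to 38.1 CPM.

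For 8 named genes the date difference in TAF10KO differed from that in WT by edgeR's interaction test. The falls of Col3a1, Col5a2, Col1a2, Fbln2, Sema3d and Krt7 were smaller in TAF10KO, by 0.71, 0.95, 0.64, 1.28, 2.47 and 1.87 on the log2 scale. The rise of Eif3j2 was larger in TAF10KO, by 1.59. The rise of Hba-x was smaller in TAF10KO, with a difference of -0.90. Each rests on 1 library per genotype and date code, with the spread taken from the 2 later TAF10HET livers only.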

How the results depend on the processing

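Of the 107 named genes called, 107 kept direction and call under median-of-ratios scaling, upper-quartile scaling, DESeq2, no filter, non-robust dispersions and totals without globins; with no genotype term 12 missed the threshold, with embryo sex as a term 1, and with WT and TAF10KO libraries only 3. List medians kept their sign under all 17 alternatives for 43 of 48 lists; the other 5 were p53 targets, histones, nuclear long noncoding RNAs, RNAs without a poly(A) tail and the sex-linked genes. The count of genes higher on the second date code, 2897 in the report, was 1786 with upper-quartile scaling, 1915 with at least 5 CPM in 3 libraries (where fewer genes are tested), 4457 with embryo sex as a term, 1593 in WT and TAF10KO libraries only (where fewer libraries enter), and 809 to 3175 when each library was left out in turn. Apart from the smaller tests, the cause was not tested. The count of lower genes stayed within 2352 to 4269 in all of them. The interaction count was 714 with no filter on low counts, and the count between TAF10KO and WT was 584 in DESeq2. Differences that turned sign were those of genes that were not called: Rn7sk (0.083 with embryo sex as a term, 2.415 in WT and TAF10KO libraries only, -2.216 to 2.412 with libraries left out), Taf10 (-0.017 with upper-quartile scaling, -0.113 to 0.315 with libraries left out), Epor (-0.061 to 0.421 with libraries left out) and Hbb-bt (0.315 with no genotype term). No paired analysis was possible because the date codes share only the replicate number 7, which the labels give to embryos of different genotypes. Genes near the count floor, such as Hox genes and markers of neighbouring tissue, are limited by depth.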

Other observations

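Several genes outside the lists also differed without overlap, all chosen after their values were seen. Gdf2, the ligand BMP9 that stellate cells secrete, was at 38.5, 42.9 and 39.0 CPM on the first date code and at 5.98, 5.02, 5.92 and 9.66 CPM on the second, or -2.58 (adjusted p = 0.000208, edgeR). Nr1h5, a nuclear receptor related to FXR, was at 52.4, 48.3 and 36.6 CPM against 4.82, 5.45, 7.91 and 10.4 CPM, or -2.68 (adjusted p = 0.00163). Ctse, the protease cathepsin E of erythroid cells and stomach, was at 10.03 to 15.1 CPM on the first date code and at 255, 281, 16.8 and 230.0 CPM on the second, so 3 of the 4 later libraries were high and TAF10HET liver 4 was not. Ctse rose by 4.075 on the log2 scale, but its difference was not called (adjusted p = 0.0826, edgeR).

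A few features behaved as present or absent by library. Gm10800, a predicted gene on chromosome 2, was at 0.182 to 8.21 CPM on the first date code and at 556 to 1616 CPM on the second, and Gm10801, Gm26870 and Gm10722 followed it. The processed pseudogenes Rpl15-ps2 and Gm10020 went the other way, at 27.9 to 51.4 and 18.6 to 36.0 CPM against at most 0.117 and 0.463 CPM. Gm13456 was at 0.766 to 0.843 CPM against 34.2 to 47.7 CPM. Gm8730 was at 345 to 371 CPM in 3 later libraries and at 0.321 CPM in the later TAF10KO library, beside at most 0.517 CPM on the first date code. Rps13-ps1 was at 43.4 and 40.4 CPM in the 2 later TAF10HET libraries and at most at 0.741 CPM in the other 5. Reads of pseudogenes and of predicted repeats can belong to other copies, so these levels are uncertain.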
